A study of Mus musculus with 48 samples.

Results

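PE alone was compared with PBS in RAW264.7 cells, a mouse macrophage cell line grown in DMEM. PE is a synthetic peptide of 15 residues, positions 65 to 79 of the HLA-DRβ chain coded by the allele 0402, and it was given at 100 µg/ml for 72 h with the medium refreshed at 48 h. The controls received PBS, and neither group received IFN-γ. The comparison used the libraries labelled with single letters as PE replicates 1 to 3 and PBS replicates 1 to 3, which are 6 of the 48 libraries of the series. The same design held 3 letter-labelled libraries each for 2 related peptides at the same dose and time, LE (allele 0301) and SE (allele 0401), and for each peptide and PBS together with IFN-γ at 5 ng/ml. The labels do not say whether replicates were separate cultures. The paper's figure legends give 6 biological replicates in 2 independent experiments, without naming single libraries. The p-values measure only the spread between these libraries. RAW264.7 is a single transformed line, and these cells carry no human HLA gene of their own.

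Macrophages clear particles and lipids, present antigen, and change their transcription sharply when they sense microbial products or interferons. They also export cholesterol, mainly through the transporters ABCA1 and ABCG1, whose genes are switched on by the sterol-sensing receptors LXR. The peptide region studied here lies in the part of the HLA-DRβ chain where alleles linked to autoimmune disease differ from one another.

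The 12 letter-labelled libraries without IFN-γ held 16498562 to 24513012 counts each, and the 6 compared 16498562 to 23681400. The 14 macrophage identity genes summed to 10738 to 11718 CPM (each count divided by the library total and scaled up) in PBS and 11471 to 13409 in PE, while the summed markers of each of 8 other cell types stayed at or under 2.22 CPM, with Cd3e, Ly6g and Epcam at 0 in all 6 libraries. Targets of IFN-γ averaged 0.85 to 0.90 on the log2 CPM scale in PBS and 0.84 to 1.14 in PE, against 6.57 to 6.67 in the letter-labelled IFN-γ libraries, so the 6 libraries match their labels on IFN-γ. A second set of libraries in the series, labelled with HLA names, did not: those labelled PE without IFN-γ stood at 6.93 to 7.10, and that set was not used.

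PE changed few genes by a large factor. Of 12420 genes tested, 389 (3.13%) were called, meaning an adjusted p under 0.05 in edgeR's quasi-likelihood test and a fold change over 1.5. Of these, 81 (0.652%) rose and 308 (2.48%) fell with PE. At the adjusted p alone, 1239 genes (9.98%) were higher and 1240 (9.98%) lower. The genes that rose were mostly short and the genes that fell mostly long. The number of calls depended heavily on single libraries. Leaving out replicate 1 of every group left 0 calls by edgeR (2300 genes at an unadjusted p under 0.05), leaving out replicate 3 left 60, and leaving out replicate 2 gave 1021. With 1 library left out, the count was 78 without PE replicate 1, 84 without PE replicate 3, 120 without PBS replicate 1 and 1002 without PE replicate 2. In each of these fits every called gene that was still tested kept its direction. In 76 of the 81 rises and 286 of the 308 falls the groups did not overlap, so leaving out libraries could hardly reverse them.

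PE replicate 2 lay closest to PBS. It had the highest level of the 3 PE libraries in 288 of the 308 genes that fell (93.5%), and the lowest in 51 of the 81 that rose (63.0%). PBS replicate 1 had the highest PBS level in 253 of the 308 genes that fell (82.1%). Among all tested genes, the 3 PE libraries lay above the 3 PBS libraries without overlap in 17.6% and below them in 16.8%.

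**Figure D1:**
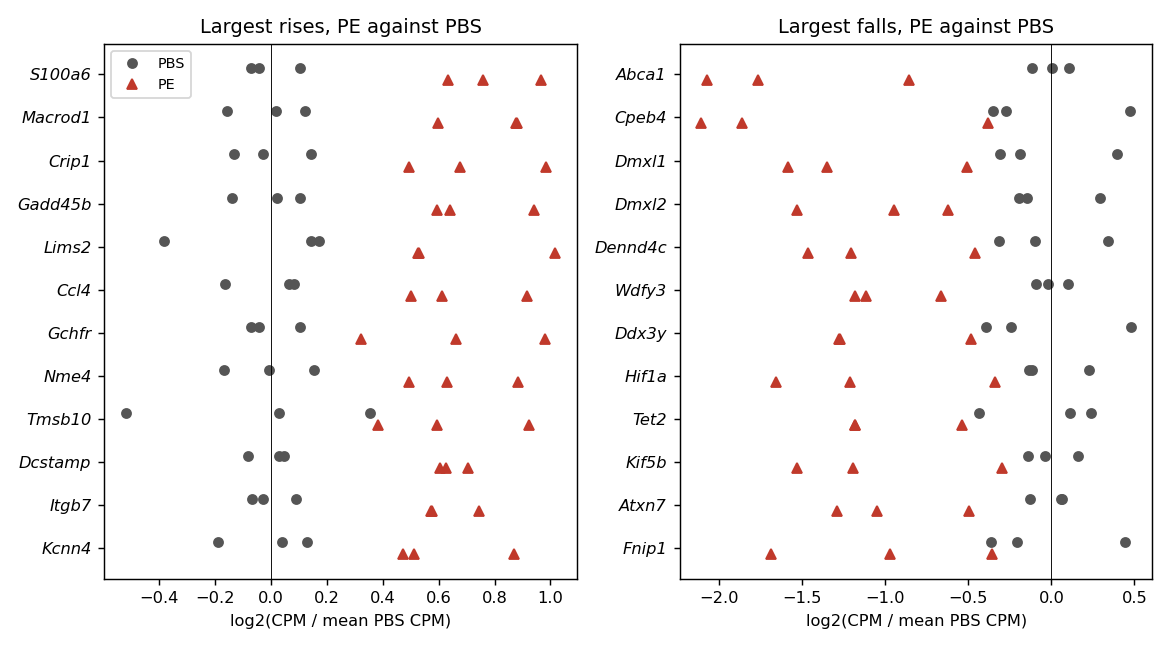
CPM of each library relative to the mean of the 3 PBS libraries (log2 scale, x axis) for the 12 largest rises (left) and the 12 largest falls (right) among called genes with a mean of at least 10 CPM. Circles are PBS libraries and triangles PE libraries, and the groups do not overlap in 23 of the 24 genes, Fnip1 being the exception.

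The largest fall among genes with at least 10 CPM was that of Abca1, which codes for the transporter that loads cholesterol onto apolipoprotein A-I. Its level was 17.7, 16.5 and 15.2 CPM in PBS replicates 1 to 3 and 4.82, 9.09 and 3.90 CPM in PE replicates 1 to 3. The groups did not overlap, and PE replicate 2 was the highest of the PE libraries. The log2 fold change was -1.45 ± 0.27 (SE, n = 3 against 3, edgeR adjusted p = 0.00645), a level 2.73-fold lower with PE. Abca1 lies on chromosome 4 at positions 53030787 to 53159895, minus strand (GRCm38). The 250 bases before its start are shown because this is the called gene that fell most among those with at least 10 CPM. In the sequence from RefSeq (GRCm38.p6, chr4:53159896-53160145, minus strand), capitals mark the motifs searched on both strands.
Abca1: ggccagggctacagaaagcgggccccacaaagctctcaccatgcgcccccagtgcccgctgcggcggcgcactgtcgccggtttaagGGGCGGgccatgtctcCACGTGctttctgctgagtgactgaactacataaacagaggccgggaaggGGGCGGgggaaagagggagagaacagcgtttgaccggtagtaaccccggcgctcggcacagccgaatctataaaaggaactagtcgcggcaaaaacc
The E-box CACGTG lies 147 to 142 bases before the start and is held by 6.02% of the 32851 RefSeq windows of this length. The GC box GGGCGG is present at 2 places, and 32.7% of the windows hold it. The motifs do not overlap one another. A match describes the sequence and not binding.

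Of 18 tested genes of LXR signalling and cholesterol efflux (of 20 listed), Abca1 was the only one called. At the adjusted p alone 2 were higher and 4 lower, against 9.98% of all genes in each direction, and the list median was -0.10 on the log2 scale against -0.00339 for all genes. Leaving out replicate 1 or 3 of every group left 0 and 1 of the 18 past the adjusted p. Abcg1, the transporter that passes cholesterol to HDL, was at 170, 183 and 182 CPM in PBS and 154, 169 and 176 CPM in PE (log2 fold change -0.10 ± 0.07, edgeR adjusted p = 0.316). Cd36, a scavenger receptor, Npc1, which moves cholesterol out of lysosomes, and Soat1, which esterifies cholesterol, were lower at the adjusted p alone by 0.51, 0.42 and 0.36 on the log2 scale. Pltp, a phospholipid transfer protein, and Npc2, the partner of Npc1, were higher by 0.44 and 0.23. Apoe, the apolipoprotein E that carries exported cholesterol, was at 4.59, 4.01 and 4.91 CPM in PBS and 2.91, 3.68 and 3.71 CPM in PE, without overlap, and did not pass (log2 fold change -0.39, edgeR adjusted p = 0.142). Of 24 tested genes of cholesterol synthesis and LDL uptake, none was called, 2 were higher and 7 lower at the adjusted p alone. Without replicate 1 or without replicate 3 of every group, 0 of these 24 passed. Hmgcs1, an early enzyme of the pathway, was at 62.9, 53.5 and 56.8 CPM in PBS and 44.4, 48.9 and 43.3 CPM in PE (log2 fold change -0.34, adjusted p = 0.0136).

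The other 11 of the 12 largest falls were in genes of different functions. Wdfy3, an adaptor for the autophagy of protein aggregates, was at 94.3, 86.7 and 82.5 CPM in PBS and 40.6, 55.3 and 38.7 CPM in PE (log2 fold change -0.97 ± 0.16, edgeR adjusted p = 0.00544). Hif1a, the oxygen-regulated transcription factor, was at 58.2, 46.0 and 45.3 CPM in PBS and 21.5, 39.4 and 15.8 CPM in PE (log2 fold change -0.95 ± 0.25, edgeR adjusted p = 0.0192). Tet2, a DNA demethylating enzyme, was at 16.8, 15.3 and 10.5 CPM in PBS and 6.26, 9.78 and 6.27 CPM in PE (log2 fold change -0.92, edgeR adjusted p = 0.0147). In all 3 genes the groups did not overlap and PE replicate 2 was the highest PE library. Cpeb4, which controls translation through the poly(A) tail, fell by 1.21 on the log2 scale. Dmxl1 and Dmxl2, partners of the proton pump that acidifies endosomes, fell by 1.06 and 0.97. Kif5b, a kinesin motor subunit, fell by 0.90, Dennd4c, a Rab regulator, by 0.97, Ddx3y, an RNA helicase, by 0.95, Atxn7, a subunit of the SAGA complex, by 0.89 and Fnip1, a partner of folliculin, by 0.89. Fnip1 was the gene in which the groups overlapped, with PE replicate 2 at 22.5 CPM and PBS replicate 2 at 22.4 CPM.

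The largest rises were smaller than the largest falls. S100a6, a calcium-binding protein, was at 518, 585 and 528 CPM in PBS and 919, 843 and 1062 CPM in PE, without overlap (log2 fold change 0.79 ± 0.09, edgeR adjusted p = 0.00299). Ccl4, a chemokine that draws T cells and monocytes, was at 45.7, 54.2 and 53.6 CPM in PBS and 78.2, 72.5 and 96.6 CPM in PE (log2 fold change 0.69 ± 0.11, edgeR adjusted p = 0.00544). Dcstamp, needed for the fusion of macrophages into osteoclasts, was at 15.3, 14.2 and 15.5 CPM in PBS and 24.5, 22.8 and 23.1 CPM in PE (log2 fold change 0.65 ± 0.09, edgeR adjusted p = 0.00501). In Dcstamp the PE libraries lay close together and PE replicate 2 did not stand apart. Itgb7, an integrin subunit, was at 160, 178 and 165 CPM in PBS and 250, 249 and 281 CPM in PE (log2 fold change 0.63 ± 0.07, edgeR adjusted p = 0.0019). Crip1, a LIM-domain protein, rose by 0.73 on the log2 scale, as did Gadd45b, a stress-response gene. Kcnn4, a calcium-activated potassium channel, rose by 0.63, Gchfr, the regulator of GTP cyclohydrolase, and Nme4, a mitochondrial nucleotide kinase, by 0.67, and Tmsb10, an actin-binding thymosin, by 0.65. Lims2, a focal adhesion protein, and Macrod1, an ADP-ribose hydrolase, rose by 0.71 and 0.79.

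Most genes of cytosolic ribosomal proteins and most nuclear genes of the respiratory chain were higher by a small factor. Of 77 tested cytosolic ribosomal protein genes, none passed the 1.5-fold limit, but 74 were higher at the adjusted p alone and 0 lower, against 9.98% of all genes in each direction. Their median log2 fold change was 0.43. Rps10, a subunit of the small ribosome, was at 380, 384 and 377 CPM in PBS and 564, 525 and 594 CPM in PE (log2 fold change 0.56 ± 0.07, edgeR adjusted p = 0.00299). Rpl36a, of the large subunit, was at 385, 440 and 414 CPM in PBS and 592, 543 and 577 CPM in PE. Ribosomal protein genes together took 6.64% to 7.49% of the counts in PBS and 8.48% to 9.17% in PE. Of 74 nuclear-encoded respiratory chain genes, 55 were higher and 0 lower at the adjusted p alone, with a median of 0.345. These counts rested on replicates 1 and 3. Without replicate 1 of every group 0 members of either list passed the adjusted p, and without replicate 3 they were 41 ribosomal protein and 4 respiratory chain genes, while in these fits the ribosomal median was 0.36 and 0.40 and the respiratory chain median 0.27 and 0.32. Atp5e, a subunit of ATP synthase, was at 155, 163 and 152 CPM in PBS and 236, 204 and 263 CPM in PE. Both lists hold short transcripts, with median lengths of 937 and 918 bases against 2918 bases over all genes. Of the 7 tested genes of the mitochondrial genome 2 were higher at the adjusted p alone, 5 did not pass, and values ran from -0.33 (mt-Co1) to 0.87. Counts of this genome were 1.57% to 2.18% of the total in PBS and 1.52% to 1.85% in PE, and the groups overlapped. mt-Nd4, a subunit of complex I, was higher by 0.29 on the log2 scale, and mt-Nd6, of the same complex, was called (6.13, 6.62 and 4.91 CPM in PBS, 10.6, 14.4 and 7.10 CPM in PE, log2 fold change 0.87). The strand setting of the counting is not given in the sources used here, so reads of mt-Nd6 and of transcripts opposite to it may not be separated.

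**Figure D2:**
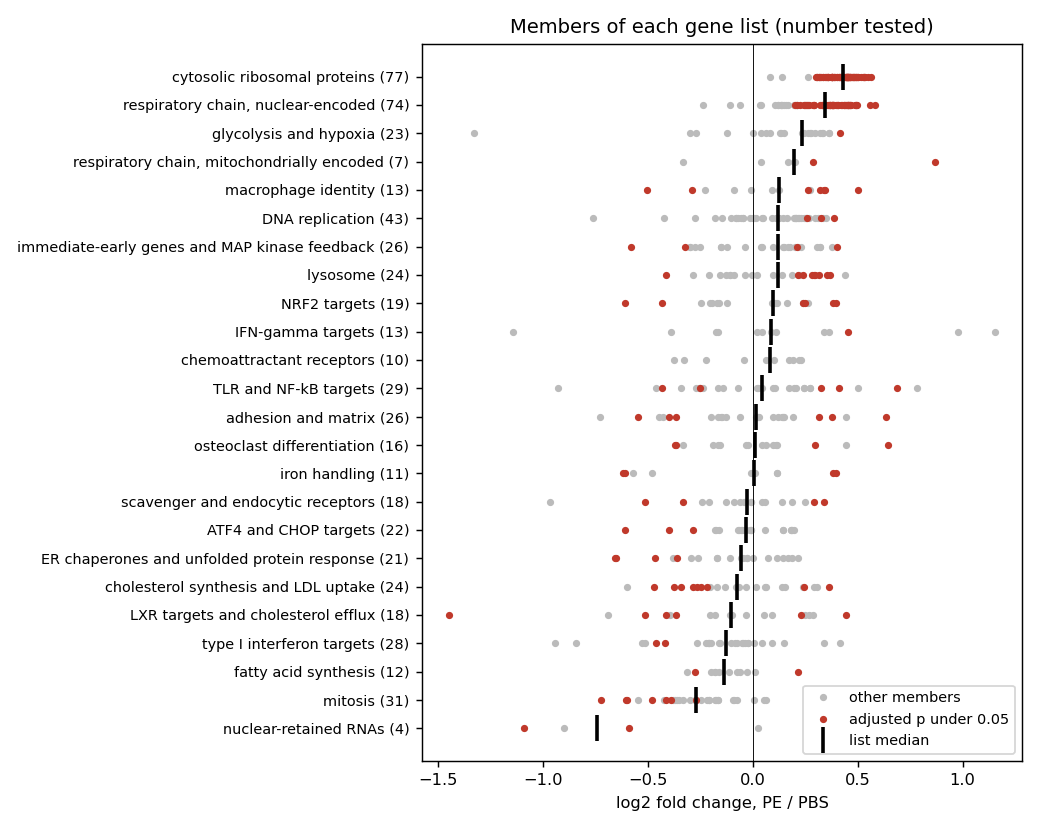
Log2 fold change of PE against PBS (x axis) for the tested members of 24 gene lists (rows, with the number tested), red where the adjusted p was under 0.05, and the median of each list as a bar. Ribosomal protein genes (median 0.43) and nuclear-encoded respiratory chain genes (median 0.345) lie to the right, mitosis genes (median -0.27) and nuclear-retained RNAs (median -0.74) to the left.

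Of 31 mitosis genes 0 were higher and 7 lower at the adjusted p alone, against 9.98% of all genes in each direction, and 3 of these were called. Without replicate 1 or without replicate 3 none of the 31 passed the adjusted p. Anln, the cytokinesis protein anillin, was at 39.9, 33.8 and 36.6 CPM in PBS and 23.4, 28.2 and 20.7 CPM in PE (log2 fold change -0.61, edgeR adjusted p = 0.0077). Knl1, of the kinetochore, and Aspm, of the spindle poles, fell by 0.72 and 0.60. Of 43 DNA replication genes, 3 were higher and 0 lower at the adjusted p alone. In the unfolded protein response, Ern1, the sensor IRE1α, was at 79.3, 74.2 and 73.2 CPM in PBS and 47.2, 56.8 and 39.2 CPM in PE (log2 fold change -0.66, edgeR adjusted p = 0.00645). Dnajb9, an ER co-chaperone, fell by 0.65, although the groups overlapped (edgeR adjusted p = 0.043). The other 19 of 21 listed genes were not called. Over all genes 2.48% were called lower. At the adjusted p alone 0 of the 21 were higher and 4 lower. Without replicate 1 of every group 0 of the 21 passed, and without replicate 3 only 1 did. Ncoa4, the receptor that delivers ferritin to lysosomes, fell by 0.62. Ireb2, an iron-sensing RNA-binding protein, fell by 0.61, although the groups overlapped (edgeR adjusted p = 0.044). The ferritin genes Fth1 and Ftl1 were higher at the adjusted p alone by 0.38 and 0.40. Slc7a11, the cystine transporter, fell by 0.61. Malat1, a nuclear RNA, was at 270, 226 and 201 CPM in PBS and 132, 188 and 144 CPM in PE and fell by 0.59.

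Of 28 type I interferon targets and 13 tested IFN-γ targets none was called, where 3.13% of all genes were, so that lists of this size would hold few calls at that share. At the adjusted p alone 0 and 2 type I targets were higher and lower, and Psmb8, an immunoproteasome subunit, was the only IFN-γ target, at a log2 fold change of 0.45. Genes that did not pass ranged widely, from -0.94 to 0.42 on the log2 scale over the type I list and from -1.14 to 1.16 over the IFN-γ list. Cxcl10, a chemokine gene induced by interferons, was at 0.322, 0.441 and 1.14 CPM in PBS and 0.334, 0.216 and 0.448 CPM in PE (log2 fold change -0.94 ± 0.52, edgeR adjusted p = 0.213). Of 29 tested TLR and NF-κB targets, 1 (Ccl4) was called, and 3 were higher and 2 lower at the adjusted p alone, shares near those of all genes. Ccl5, a chemokine for T cells, was at 1.21, 1.59 and 1.64 CPM in PBS and 1.91, 2.29 and 3.52 CPM in PE, and did not pass although the groups did not overlap (log2 fold change 0.78 ± 0.30, edgeR adjusted p = 0.077). Tnf was at 27.4, 41.1 and 38.8 CPM in PBS and 25.5, 38.3 and 45.7 CPM in PE (log2 fold change 0.02, edgeR adjusted p = 0.954). Nos2, the inducible nitric oxide synthase, was at 7.50, 25.0 and 31.2 CPM in PBS and 12.4, 19.9 and 17.7 CPM in PE, with a spread between PBS libraries larger than the difference. Il1b had 2, 4 and 1 counts in PBS and 0, 2 and 0 in PE and was not tested.

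Of 24 lysosomal genes none was called, and at the adjusted p alone 8 (33.3%) were higher, among them the protease Ctsk, and 1 (4.17%) was lower, the cholesterol exporter Npc1, against 9.98% of all genes in each direction. Of 13 tested macrophage identity genes 5 (38.5%) were higher and 2 (15.4%) lower at the adjusted p alone, with Cebpa, a myeloid transcription factor, at 20.4, 21.3 and 21.9 CPM in PBS and 30.0, 28.9 and 31.2 CPM in PE (log2 fold change 0.50). With replicate 1 or replicate 3 left out, none of either list passed. In the remaining lists the counts were small, and most lay near what the shares of all genes would give. The counts of higher and lower members at the adjusted p alone were 4 and 2 of 19 NRF2 targets, 0 and 3 of 22 ATF4 and CHOP targets, 1 and 0 of 23 glycolysis and hypoxia genes, and 2 and 2 of 26 immediate-early genes. They were 3 and 3 of 26 adhesion and matrix genes, 2 and 2 of 16 osteoclast genes, 2 and 2 of 18 scavenger and endocytic receptors, 1 and 1 of 12 fatty acid synthesis genes, and 0 and 0 of 10 chemoattractant receptors. The glycolysis and hypoxia count depended on the fit. Its list median was 0.23 on the log2 scale against -0.00339 for all genes. With the replicate number as a block, 11 of these 23 genes were higher and 1 lower at the adjusted p alone. That fit passed 3657 of all genes, against 2479 without the block. Leaving out replicate 1, 2 or 3 of every group left 0 of the 23. Spp1, the secreted protein osteopontin, was at 4833, 5031 and 5198 CPM in PBS and 5998, 6492 and 6225 CPM in PE (log2 fold change 0.31, edgeR adjusted p = 0.0359), below the 1.5-fold limit.

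The fold changes of PE against PBS followed transcript length and base composition. Over 12272 genes with a known transcript, Spearman's rho between the log2 fold change and transcript length was -0.51, and 0.44 with GC content. These describe genes, which are not independent replicates. The median length was 1292 bases for genes that rose and 5995.5 bases for genes that fell. In the longest of 4 equal length classes 5 genes rose and 230 fell, and in the shortest 48 rose and 7 fell.

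**Figure D3:**
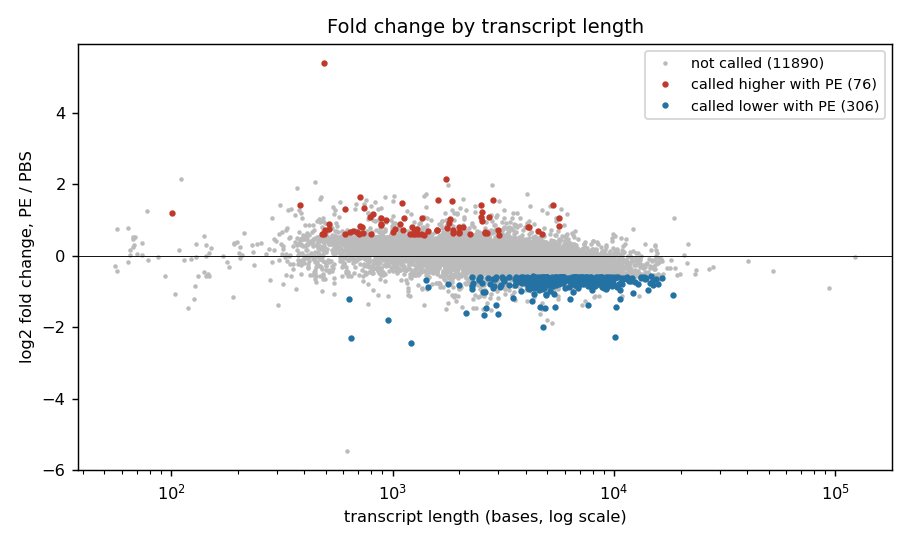
Log2 fold change of PE against PBS (y axis) by transcript length in bases (x axis, log scale) for each gene, grey where not called, red for the 76 called genes with a known length that rose and blue for the 306 that fell. The blue points lie mostly to the right of the red ones (medians of 5995.5 and 1292 bases).

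The same shift could be read in single libraries. The median log2 deviation of the longest class minus that of the shortest was 0.28, 0.08 and 0.10 in PBS replicates 1 to 3 and -0.35, -0.12 and -0.39 in PE replicates 1 to 3. It was -0.04, -0.02 and -0.21 in LE and -0.23, -0.14 and -0.33 in SE. The groups PE and PBS did not overlap, and PBS replicate 1 and PE replicate 2 lay apart from the others of their group. The study's methods state a minimum RNA integrity number for all libraries, but values per library were not among the data used here, and the part of library preparation or RNA integrity in this shift was not tested.

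**Figure D4:**
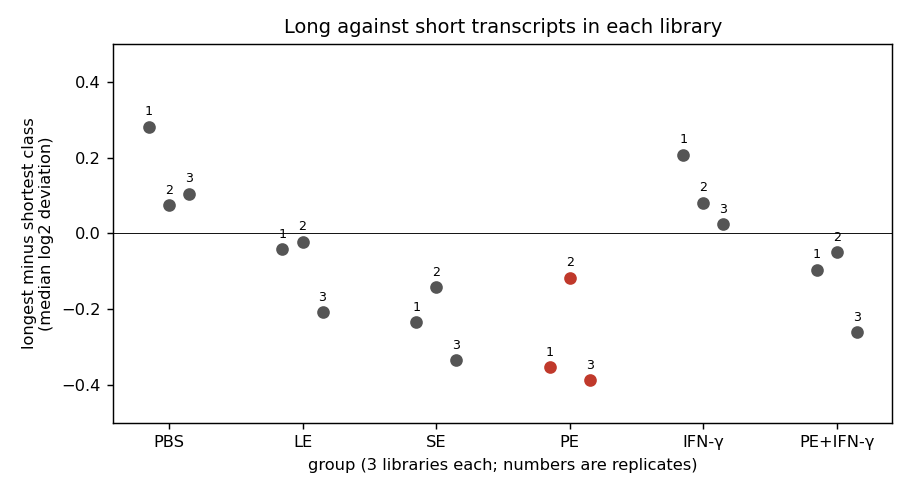
Median log2 deviation of the longest minus that of the shortest of 4 transcript length classes in each library (y axis), by group (x axis), with PE in red and replicate numbers above the points. PE libraries lie between -0.39 and -0.12 and PBS libraries between 0.08 and 0.28.

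When the length and GC trend of each library was removed by an offset, 88 genes (0.709%) were called, 44 in each direction. All 389 genes kept their direction, and 20 of the 81 rises and 37 of the 308 falls were still called. At the adjusted p alone 39 of the 81 rises and 112 of the 308 falls passed. Abca1 was still called lower (log2 fold change -1.13, edgeR adjusted p = 0.0115), and Wdfy3 (-0.70), Hif1a (-0.68) and Atxn7 (-0.62) were too. Dcstamp was still called higher (0.63, adjusted p = 0.00271), as was mt-Nd6 (0.91). S100a6, Itgb7 and Ccl4 passed the adjusted p but not the 1.5-fold limit, at 0.51, 0.50 and 0.49. The median of the ribosomal protein genes became 0.22, with 39 higher and 1 lower at the adjusted p alone against 4.36% and 2.45% of all genes, and that of the respiratory chain genes 0.13, with 17 higher and 0 lower. Of the 12 largest rises, 4 no longer passed the adjusted p with the offset, which were Lims2, Gchfr, Nme4 and Tmsb10. Of the 12 largest falls, 6 no longer passed, which were Cpeb4, Dennd4c, Ddx3y, Tet2, Kif5b and Fnip1, with changes of -0.50 to -0.84. Of the 11 other called genes that the lists gave, 7 no longer passed, among them Knl1 (-0.23), Aspm (-0.23), Ireb2 (-0.23), Dnajb9 (-0.49), Slc7a11 (-0.16) and Malat1 (-0.22). Apoe, not called without the offset, was called lower with it (-0.66, edgeR adjusted p = 0.0455), so that 2 of the 18 LXR and efflux genes were. Of the 24 genes of cholesterol synthesis and LDL uptake, 0 were higher and 1 lower at the adjusted p alone with the offset. Hmgcs1 did not pass with it (-0.15, edgeR adjusted p = 0.149).

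PE added to IFN-γ was measured in 6 other libraries, which share none with the comparison above. Of the 75 genes that rose with PE alone and were tested there, 67 (89.3%) were also higher with PE, and 21 of them passed the adjusted p, with 0 passing in the opposite direction. With the fold limit as well, 3 were called. Over all 12720 genes tested there, 5.43% were higher and 4.58% lower at the adjusted p alone, and 0.629% were called. Of the 306 that fell, 291 (95.1%) were also lower, and 66 passed, with 0 opposite, while 4 were called. Within the 75 rises Spearman's rho between the sets was 0.0064, and within the 306 falls -0.0053. Their median log2 fold changes were 0.73 and -0.70 with PE alone, and 0.38 and -0.27 with IFN-γ present. Over all 12163 genes tested in both sets 75.7% had the same sign and Spearman's rho across genes was 0.60. With the offset in both sets these were 66.1% and 0.41, and the shares with the same sign were 81.3% of the rises and 79.1% of the falls. The length trend was present there too (rho -0.43). Abca1 was lower by 0.80 on the log2 scale with IFN-γ (edgeR adjusted p = 0.0612). S100a6 (0.37, adjusted p = 0.0051), Ccl4 (0.57, adjusted p = 0.000975), Dcstamp (0.57, adjusted p = 0.00234) and Itgb7 (0.28, adjusted p = 0.00531) passed the adjusted p in the same direction. In a direct test of whether the effect of PE differed with IFN-γ, edgeR called 0 of 13096 genes, with 0 at the adjusted p alone and 1073 at an unadjusted p under 0.05. DESeq2 also called 0 with the fold limit, and 16 at the adjusted p alone.

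**Figure D5:**
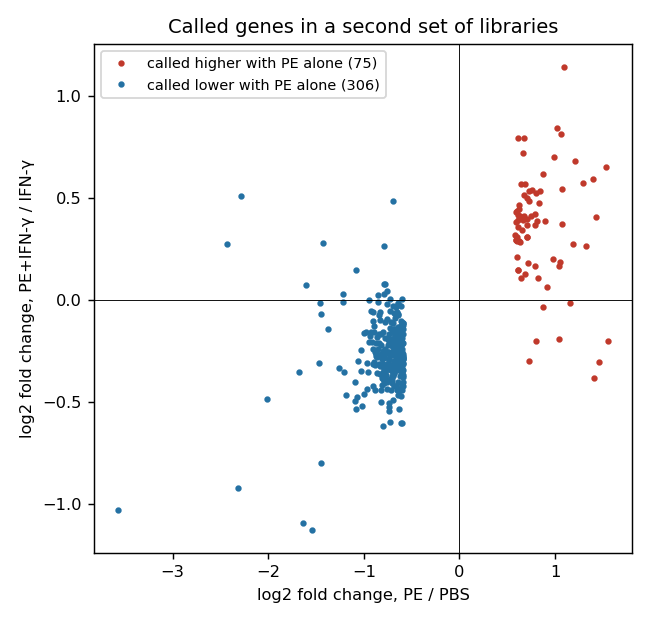
Log2 fold change of PE against PBS (x axis) and of PE with IFN-γ against IFN-γ (y axis) for the genes called with PE alone and tested in both, red for the 75 that rose and blue for the 306 that fell. Most red points lie above 0 and most blue points below it on the y axis (67 and 291 genes).

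PE was also compared directly with the related peptides at the same dose and time. Few genes separated them. Against SE, edgeR called 4 genes (0.0322%), all lower with PE, while 684 lay under 0.05 before adjustment. Lcn2, the siderophore-binding lipocalin 2, was at 18.2, 18.9 and 19.3 CPM with PE and 34.7, 41.9 and 52.1 CPM with SE (log2 fold change -1.19 ± 0.13, edgeR adjusted p = 0.00204). Irf7, a regulator of type I interferon, was lower by 0.65, Procr, the protein C receptor, by 0.76 and Tenm4, a teneurin, by 0.75. The PE and SE libraries did not overlap in these 4 genes, which the test had picked from the same libraries. The share of all genes without overlap between PE and SE is not given here. Against LE, edgeR called 3 genes (0.0242%), while 1383 lay under 0.05 before adjustment. Lcn2 was at 34.9, 33.1 and 38.9 CPM with LE and was lower with PE by 0.92 on the log2 scale. Igf2bp3, an RNA-binding protein, was at 2.10, 2.34 and 2.17 CPM with PE and 5.15, 5.09 and 4.32 CPM with LE and was lower with PE by 1.14. Rgs2, a regulator of G-protein signalling, was at 61.7, 65.3 and 62.6 CPM with PE and 37.5, 42.2 and 44.3 CPM with LE and was higher with PE by 0.61. Against PBS, which these comparisons share, Lcn2 was at 13.3, 15.7 and 13.4 CPM and changed by 0.41 with PE, 1.60 with SE and 1.34 with LE on the log2 scale. Abca1 changed by -1.45 with PE, -1.18 with SE and -0.67 with LE against the same PBS libraries, and it was not called between PE and either peptide. Its fall with LE did not pass (edgeR adjusted p = 0.262). S100a6 rose by 0.79 with PE, 0.49 with SE and 0.30 with LE, and Dcstamp by 0.65, 0.54 and 0.22. In the same order Ccl4 rose by 0.69, 0.88 and 0.49, and Itgb7 by 0.63, 0.79 and 0.28. With LE these rises did not pass the adjusted p. The ribosomal protein median was 0.43, 0.34 and 0.23. The study's reagent list gives PE from another supplier than LE and SE, and supplier and peptide cannot be told apart.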

How the data were processed

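The authors sequenced RAW264.7 RNA (TruSeq mRNA libraries, single-end reads) and deposited raw counts per gene of uniquely aligned reads, made with featureCounts. Per the labels their build was GRCm38.p5 and their tools R 3.4.1 and DESeq2 1.16.1. Here the deposited counts of the 12 letter-labelled libraries without IFN-γ (PBS, LE, SE, PE) were filtered with filterByExpr, scaled by TMM and fitted with edgeR 4.0.16 (R 4.3.3), with Benjamini-Hochberg adjustment. Depth was 16498562 to 24513012 counts a library. CPM values in the text are TMM-scaled, except the marker sums and the IFN-γ target averages, which used plain library totals. For the IFN-γ targets 0.1 was added before the log2. The ± gives an SE of the log2 fold change, calculated back from the F statistic of the fit. It draws on the spread within all groups of the fit. The fit was tested on simulated data that held no outlying library, so that test does not cover how the calls depend on single libraries. Lengths and GC came from GENCODE M21 (GRCm38), which matched 47562 of 49568 gene names, using the longest protein-coding transcript. The offset removed smooth trends on length and GC (mgcv 1.9.3). After its first result was seen, the offset was also run with 2 other choices of transcript, and the first choice was kept.

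Members and gene lists were chosen with earlier results of these data known. Genes were named as the 12 largest called changes in each direction with a mean of at least 10 CPM, up to 4 called members of each list or the 2 with the lowest p, and a list of key genes. Members named where 5 or fewer of a list passed the adjusted p, and the genes of the peptide comparisons, were chosen after their values were seen. Libraries labelled with HLA names were not used. Alternatives were DESeq2 1.42.0, other scaling and filters, a replicate block, and leaving out libraries.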

Additional observations from a re-analysis of the deposited data

How the results depend on the processing

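The 389 calls of PE against PBS depended on which libraries were used. Leaving out a replicate number gave 0 to 1021 calls, a single library 78 (PE replicate 1) to 1002 (PE replicate 2), and a single library with the length and GC offset 6 to 281 (53, 79 and 62 without PBS replicates 1, 2 and 3). Fitting only the 6 libraries gave 210, the offset 88, and no fold minimum 2479. Chosen after seeing the data, a representative transcript for the offset gave 101 and the longest transcript of any type 105, of which 76 and 83 were shared with the 88. Over all genes the replicate numbers showed no clear pairing of libraries. Same-number correlations were 0.06, -0.14 and 0.06 between PBS and PE, and 2 of 6 libraries were closest to their own number. A measure over all genes does not settle whether part of the genes shared a replicate effect. Cx3cr1, Tnf, Nos2 and Gapdh were lowest in replicate 1 of PBS, LE, SE and PE, while Abca1 was not. With the number as a replicate block, 514 genes were called, and 152 with block and offset. At the adjusted p alone, 3657 genes passed with the block and 2479 without it. All called genes kept their direction in every alternative that tested them. Where libraries were left out, this was largely set in advance, as the groups did not overlap in most called genes. PE against SE (4 calls) gave 12 by DESeq2, 27 without a filter, 1 from its 6 libraries, 9 with the block, 10 with block and offset, and 0 to 1 without a replicate. PE against LE (3) gave 19, 55, 1, 18 and 25 in the same order, 0 without any replicate, and 5 both with no fold minimum and with the longest transcript of any type. PE with IFN-γ (80) gave 31 by DESeq2, 152 without a filter and 4 to 250 without a replicate. The interaction (0) gave 61 without a filter, which admits genes of very few counts, and 0 to 1 without a replicate. List members called (15) became 8 with the offset and 0 to 64 without a replicate. The correlation with length was -0.65 in genes over 10 CPM. Of 74 named genes, 6 that were not called changed sign. With the offset, without and with the block, these were Abcg1 (0.036, 0.035), Lrp1 (0.045, 0.045) and Tnf (-0.11, -0.13). Without a replicate or library, Tnf ranged from -0.16 to 0.23, Nos2 from -0.75 to 0.049, Mmp9 from -0.39 to 0.087 and Cx3cr1 from -0.085 to 0.38. Causes were not tested. Every p-value rests on 3 libraries a group.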
